A study of Mus musculus with 2 samples.

Results

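Defensins and related antimicrobial genes were examined on whole-transcript arrays of ILCregs (regulatory innate lymphoid cells) that had been sorted from mouse small intestine. The members were the genes whose only symbol in the platform's annotation begins with Defa, Defb or Defcr, or is Ang1 to Ang6, Itln1, Itlna, Pla2g2a, Camp or Pglyrp1 to Pglyrp4. This gave 65 genes of the 28279 named genes on the array, each with 1 feature (transcript cluster): 16 alpha-defensins, 39 beta-defensins and 10 other antimicrobial genes. The 2 arrays, array 1 (replicate 1) and array 2 (replicate 2), form 1 group from IL-10-GFP knockin mice of strain C57BL/6 that were 8 weeks old and were kept free of specific pathogens. In these mice the interleukin 10 locus carries a green fluorescent reporter, and no treatment is named. The labels do not give the mice or sort behind each array, so their spread may be technical. No other cell population was analysed here, so groups could not be tested against each other and all results are descriptions.

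Alpha-defensins, called cryptdins in mice, are short cationic peptides held together by disulfide bonds that disrupt microbial membranes. Mouse Paneth cells, secretory cells at the base of the small intestinal crypt, store them as precursors that the protease matrilysin cuts into active form, and release them into the crypt lumen. Beta-defensins share the fold but differ in their disulfide pairing, and many are made by the epididymis, skin, airway and other lining epithelia. In mice the alpha-defensin genes form a cluster on chromosome 8 of many near-identical copies and pseudogenes, with beta-defensin genes on either side and further beta-defensin clusters on other chromosomes. Because the copies are so alike, probes of different alpha-defensin features may share signal, and every alpha-defensin value below is uncertain as to which copy gave it.

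The deposited values are read as log2 signal from their range, and the log base itself is not stated. To tell signal from what an array reads without transcript, a threshold was set on each array at the 95th percentile of 1678 genes of olfactory, vomeronasal and taste receptors (the reference). It was 6.74 on array 1 and 6.19 on array 2, and to count as above the threshold a gene had to pass on both. Of all named genes, 8971 passed (31.7%), against 38.9% of 16406 protein-coding genes outside the reference and 2.44% of the reference genes themselves. Falling below the threshold does not show that a transcript is absent. Signal gives no order of abundance between genes, because probe affinities differ. Of 10 measured markers of the labelled cell type, 7 passed, Il10 with 10.59 on array 1 and 11.05 on array 2, while Thy1, Klrb1c and Tbx21 were below the threshold on both. Markers of other cells passed too: 8 of 8 for epithelium, 5 of 5 for goblet cells, 4 of 4 for Paneth cells (defensins aside), 4 of 4 for macrophages, 3 of 4 for T cells and 2 of 8 for neutrophils. The labels put the purity of the sort above 95%. In such bulk samples, fewer cells of a type and less RNA per cell cannot be told apart.

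Of the 16 alpha-defensin members, 9 passed the threshold on both arrays (56.25%, beside 31.7% of all named genes), 0 passed on 1 array only and 7 passed on neither. Their median signal was 7.31, against 5.43 over all named genes. Of the 12 in the chromosome 8 cluster, between the beta-defensin genes Defb33 and Defb1, 9 passed and 3 passed on neither array. This split by place was made after the values were seen. Array 1 read higher for each of the 12. After centring on the median difference of all named genes this still held, beside 50.0% of all named genes. Relative to each array's own threshold, however, Defa26, Defa-ps17, Defa-ps10, Defa-ps8 and Defa-ps11 stood higher on array 2. The 9 were the 4 members not named as pseudogenes, Defa21, Defa22, Defa25 and Defa26, and 5 of 12 pseudogenes, of which the gene table lists Defa-ps8 as protein-coding. The alpha-defensin nearest above the threshold, the pseudogene Defa-ps10, exceeded it by 0.36 at its smaller distance. Of those below, judged by the array on which each fell furthest short, Defa-ps8 was nearest, at -1.62 on array 1. On array 2 alone Defa-ps14 came nearer, at -0.28, but it lay at -1.75 on array 1.

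The 3 alpha-defensin members of highest signal encode Paneth cell cryptdins. Defa21 had a signal of 11.88 on array 1 and 10.86 on array 2, a mean of 11.37 ± 0.72 (SD, n = 2). Defa22 gave 11.92 and 10.81, a mean of 11.36 ± 0.79, and Defa25 gave 11.66 and 10.43, a mean of 11.04 ± 0.87. All lay more than 4 on the log2 scale above the threshold of each array, and all were higher on array 1. Defa26 read 10.30 and 9.96, with the smallest SD of these 4 genes at 0.25.

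Defa21 and Defa22 had nearly the same pair of values, and they also shared their upstream sequence. The promoter table of RefSeq (build GRCm38.p6) held 2 of the 16 alpha-defensin members, 27 of the 39 beta-defensins and 6 of the 10 other genes. Over the 250 bases before the start site, Defa21 (chr8:21025295-21025544, + strand) and Defa22 (chr8:21162027-21162276, + strand) matched at 250 of 250 positions. Windows are shown for Defa21, for Defa30, an alpha-defensin listed under an older symbol (chr8:21134400-21134649, + strand), for Defb46, a beta-defensin that passed the threshold (chr8:19239666-19239915, + strand), and for the Paneth cell ribonuclease gene Ang4 (chr14:51773591-51773840, - strand), to set the cryptdin promoters beside those of other members. Capitals mark matches on either strand to TATAAA, the core promoter box, or to CTTTGAT, a form of the site read by the Wnt pathway's TCF factors. CTTTGAA, the other form searched, had no match in these windows. No matches overlap in the windows shown.
Defa21: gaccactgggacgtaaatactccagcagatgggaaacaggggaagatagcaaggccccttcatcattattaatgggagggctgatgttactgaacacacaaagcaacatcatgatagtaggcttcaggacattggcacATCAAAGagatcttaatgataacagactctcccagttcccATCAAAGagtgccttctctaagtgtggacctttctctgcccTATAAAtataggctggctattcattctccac
Defa30: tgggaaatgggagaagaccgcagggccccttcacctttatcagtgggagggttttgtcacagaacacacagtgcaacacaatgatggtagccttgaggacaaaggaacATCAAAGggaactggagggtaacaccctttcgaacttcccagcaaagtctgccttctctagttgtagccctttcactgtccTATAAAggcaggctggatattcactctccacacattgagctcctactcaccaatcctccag
Defb46: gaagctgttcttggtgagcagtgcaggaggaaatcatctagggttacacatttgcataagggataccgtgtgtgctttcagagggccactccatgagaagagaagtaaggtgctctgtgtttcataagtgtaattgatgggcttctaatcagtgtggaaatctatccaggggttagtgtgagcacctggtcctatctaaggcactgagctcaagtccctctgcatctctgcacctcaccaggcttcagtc
Ang4: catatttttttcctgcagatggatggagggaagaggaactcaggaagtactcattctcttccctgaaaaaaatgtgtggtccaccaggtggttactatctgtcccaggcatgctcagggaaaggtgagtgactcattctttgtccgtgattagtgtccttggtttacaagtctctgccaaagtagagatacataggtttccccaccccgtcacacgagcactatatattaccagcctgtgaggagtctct

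The cryptdin windows shared exact motif matches that the Defb46 and Ang4 windows lacked. Only these exact letters were searched, so variant forms of a motif, such as another TATA sequence, were not counted. Both Defa21 and Defa22 held CTTTGAT at 2 places on the strand opposite the gene, beginning 112 and 72 bases before the start site, and TATAAA beginning 31 bases before it. Of 4 further alpha-defensin promoters, those of genes listed under older symbols, 4 held CTTTGAT and 3 held TATAAA. In these 3, Defa30, Defa35 and Defa41, TATAAA began 61, 46 and 74 bases before the start site. Over every alpha-defensin gene of the promoter table, 13 of 16 windows (81.2%) held CTTTGAT and 15 of 16 (93.8%) held TATAAA. Among all 32851 promoters of the same length, 3.21% held CTTTGAT, 4.46% held CTTTGAA and 12.4% held TATAAA. Of the 27 beta-defensin windows, 0 held CTTTGAT, 2 held CTTTGAA and 5 held TATAAA, and of the 6 windows of the other antimicrobial genes none held any of the 3 motifs. Pairwise identity over aligned columns had a median of 64.2% between 15 pairs of alpha-defensin windows, from 49.2% to 100%, against 50.3% between 351 pairs of beta-defensin windows. A match describes these letters and shows no binding, and promoters copied with their genes are not independent of each other.

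Pseudogenes of the alpha-defensin cluster gave signal as well, and those that passed all lie in the cluster. In the annotation's gene order on chromosome 8 (GRCm38.p6), 12 of the 16 alpha-defensin members lie between the beta-defensin genes Defb33 and Defb1, and 9 of these 12 passed. The other 4, Defa-ps12, Defa-ps13, Defa-ps14 and Defa-ps15, are named as alpha-defensin pseudogenes but lie among beta-defensin genes, with Defb3, Defb4, Defb6, Defb7 and Defb8 as their nearest coding neighbours, and 0 of 4 passed. Their mean signals ran from 3.72 to 5.45. The split by place was made after the values were seen.

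Among the 8 pseudogenes between Defb33 and Defb1, Defa-ps1 had the highest signal, 11.29 on array 1 and 9.88 on array 2. It lies between the coding genes Defa34 and Defa39 in the gene order. Defa-ps6, between Defa41 and Defa40, read 11.05 and 9.67. These values lay near or within the range of Defa21, Defa22, Defa25 and Defa26 on each array. Defa-ps18 followed with 9.38 and 8.58, then Defa-ps17 with 7.74 and 7.51 and Defa-ps10 with 7.11 and 6.89. Defa-ps17 and Defa-ps10 no longer passed when the threshold was set at the 99th percentile of the reference, where 7 of the 16 did. Below the threshold were Defa-ps8 (5.12 and 5.03), Defa-ps16 (4.90 and 4.15) and Defa-ps11 (3.89 and 3.66). Signal at a pseudogene feature may be that of a near-identical functional copy, which was not tested.

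Several alpha-defensin genes fell outside the choice by symbol because the annotation lists them under older names. Through their Entrez gene identifiers, 7 further genes carry a current alpha-defensin symbol, and 7 of 7 passed the threshold, beside 31.7% of all named genes. Defa30 was highest with 12.79 on array 1 and 12.28 on array 2, followed by Defa34 with 12.29 and 11.46. Defa27, the most different between the arrays, read 11.83 and 10.12. The remaining 4, Defa28, Defa35, Defa40 and Defa41, had mean signals from 8.53 to 11.14. With these 7 genes added to the 16 members, 16 alpha-defensins passed, namely 9 of the 16 members and all 7 added genes. The median signal was then 10.13. A further 10 features carried several gene symbols at once, at least 1 of them that of an alpha-defensin, and are not named. All 10 passed, with signals from 12.94 to 16.02 on array 1 and from 12.18 to 15.63 on array 2, above the highest mean signal of any alpha-defensin member (11.37). Of these, 2 features had the same values as each other, 14.37 on array 1 and 13.87 on array 2.

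**Figure D1:**
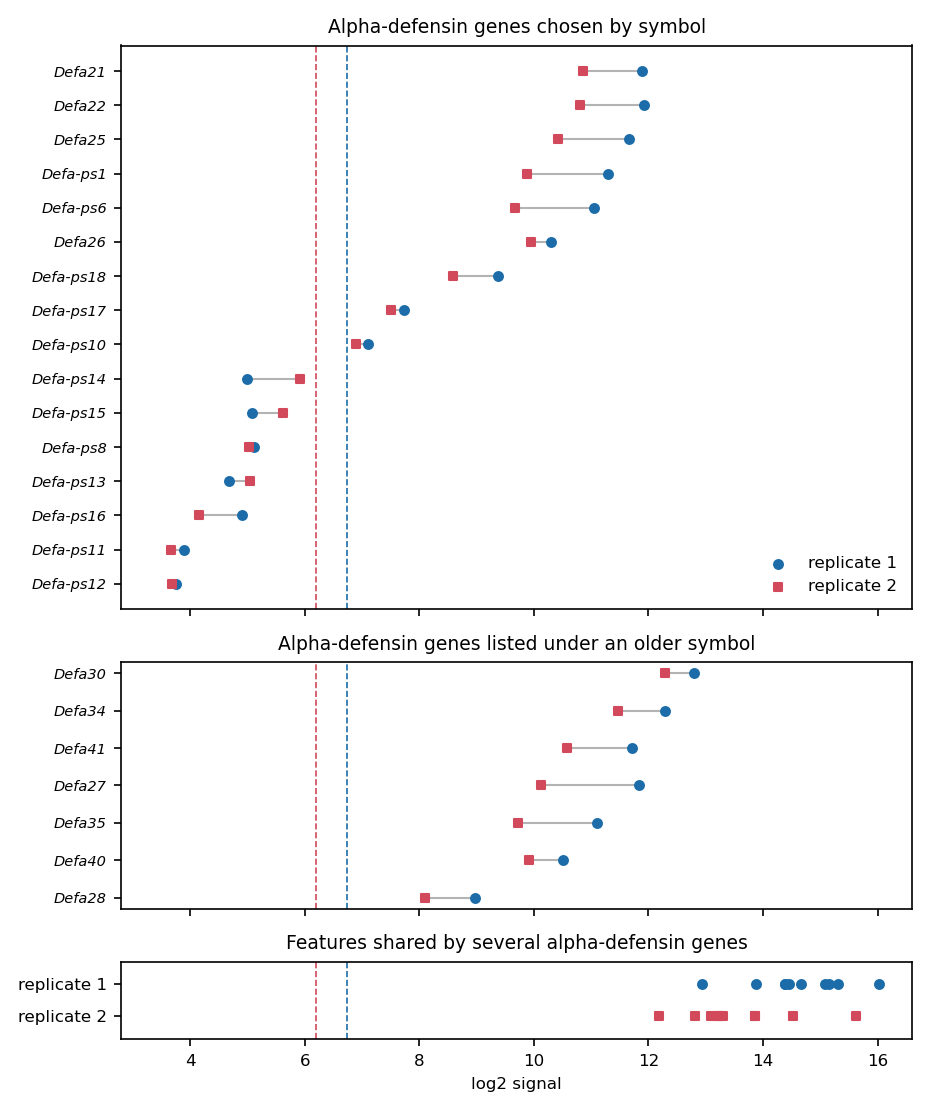
Log2 signal of each alpha-defensin gene on array 1 (circles) and array 2 (squares), for the 16 members, the 7 genes under older symbols and the 10 features shared by several genes, with the threshold of each array as a dashed line in its colour. Of the 16 members, 9 lie to the right of both lines and 7 to the left of both, and the shared features lie between 12.18 and 16.02.

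Between the arrays, most alpha-defensins read higher on array 1. Differences are given as array 2 minus array 1, centred on the median difference of all named genes, so that 0 is the typical gene. The alpha-defensin members had a median centred difference of -0.24, and 13 of 16 were below 0, beside 50.0% of all named genes. Among the 12 between Defb33 and Defb1 the median was -0.73 and 12 of 12 were below 0, whereas among the 4 that lie with beta-defensins it was 0.50 and 3 of 4 were above 0. More than 2-fold higher on array 1 were 4 of the 16 (25%), beside 1.97% of all named genes, and 0 were so on array 2, beside 1.48%. The share differs between sets of genes: of the 1678 reference genes, 146 were so on array 1 and 40 on array 2. The 4 alpha-defensins were Defa-ps1 (-1.36), Defa-ps6 (-1.33), Defa25 (-1.18) and Defa22 (-1.06). Defa21 followed with -0.98 and Defa-ps18 with -0.75, while Defa26 stood at -0.30. In the opposite direction the most different were Defa-ps14 (0.97), Defa-ps15 (0.59) and Defa-ps13 (0.40), all below the threshold.

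The 7 genes under older symbols had centred differences from -1.67 for Defa27 to -0.47 for Defa30, with a median of -0.84. For the 10 shared features the median was -0.65, all 10 were below 0, and 4 were more than 2-fold higher on array 1. Every such difference compares 1 array with 1 other and cannot be checked in replicates, and features that share probe signal are not independent of each other. Among 477 named genes with a mean signal from 11 to below 12, the 5th percentile of the centred difference was -0.83, and Defa21, Defa22 and Defa25 all lay below it. Among 762 genes with a signal from 10 to below 11 it was -0.70, and Defa-ps1 and Defa-ps6 lay below it but Defa26 did not. At lower signals Defa-ps18 (-0.75, against -0.64) and Defa-ps16 (-0.71, against -0.62) also lay below the 5th percentile of their steps. Defa-ps14 (0.97) lay above the 95th percentile of its step, 0.67.

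**Figure D2:**
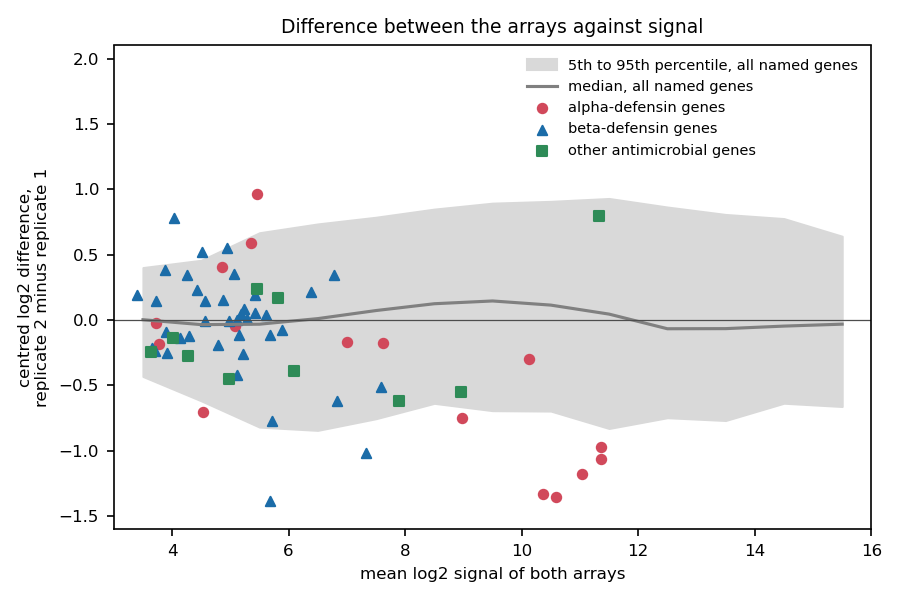
Centred log2 difference of array 2 minus array 1 (vertical) against mean log2 signal (horizontal) for the 65 members, over the 5th to 95th percentile (band) and median (line) of all named genes in steps of 1 on the log2 scale. Defa21, Defa22, Defa25, Defa-ps1 and Defa-ps6 lie below the band at signals from 10 to 12, while most beta-defensins lie at signals below 6. At lower signals Defa-ps18, Defa-ps16, Defb38 and Defb46 also lie below the band, and some members lie above it, among them Defa-ps14 and Defb48.

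Beta-defensin genes were mostly below the threshold. Of 39 members, 3 passed on both arrays (7.69%, beside 31.7% of all named genes), 2 passed on array 2 only and 34 passed on neither. The median signal was 5.06, below the 5.43 of all named genes and above the 4.47 of the reference genes. Among the 22 on chromosome 8 there were 2 that passed, and among the 17 on other chromosomes 1. Without array 1, 5 passed, and at the 99th percentile of the reference 0 did, so these calls depended on where the threshold was set.

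The 3 that passed were Defb44-ps, a pseudogene, Defb46 and Defb34. Defb44-ps read 7.86 on array 1 and 7.30 on array 2, a mean of 7.58 ± 0.40. Defb46 gave 7.86 and 6.79, and Defb34 gave 7.16 and 6.49, which exceeded the threshold by 0.31 at its smaller distance. All 3 were higher on array 1. Defb3, an inducible epithelial beta-defensin, read 6.63 and 6.92 and lay at -0.12 relative to the threshold of array 1. Defb15 read 6.30 and 6.47, and it also passed on array 2 only, as did 6.91% of all named genes. At the other end, Defb19, Defb29 and Defb28 had mean signals of 3.40, 3.65 and 3.71. The beta-defensin genes best known from lining epithelia, Defb1, Defb2, Defb4 and Defb14, named for that role and not by their values, had mean signals of 5.14, 5.24, 5.28 and 5.42, each below the threshold on both arrays.

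Between the arrays the beta-defensins showed no common direction. Their median centred difference was 0.00, with 19 of 39 below 0 and 20 above. Centring on genes above the threshold turned the sign of this median, to -0.047. The largest differences toward array 1 were those of Defb38 (-1.38), with 6.39 against 4.96, and Defb46 (-1.02). These 2 of 39 were more than 2-fold apart (5.13%), beside 3.45% of all named genes and 11.1% of the reference genes in either direction. Defb35, Defb34 and Defb44-ps followed with -0.77, -0.62 and -0.51. Toward array 2 the largest were Defb48 (0.78), Defb9 (0.55) and Defb6 (0.52), with Defb40 at 0.38 and Defb50 at 0.35, all of genes below the threshold.

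The other antimicrobial genes were divided, with 3 of 10 above the threshold (30%, beside 31.7% of all named genes) and 7 passing on neither array. Itln1, which encodes intelectin 1, a lectin of goblet and Paneth cells that binds microbial sugars, had the highest signal of the 10, with 10.95 on array 1 and 11.70 on array 2 (11.32 ± 0.53). Its centred difference, 0.79 toward array 2, was opposite in sign to those of the cryptdin genes. Pglyrp1, a peptidoglycan recognition protein that kills bacteria and is stored in neutrophil granules, read 9.25 and 8.65. Ang4, a microbicidal ribonuclease of Paneth and goblet cells, read 8.23 and 7.56, the nearest above the threshold with a smaller distance of 1.37. Pglyrp1 and Ang4 had centred differences of -0.55 and -0.62.

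Below the threshold, Pla2g2a, a secreted phospholipase of Paneth cells whose gene is disrupted in C57BL/6 mice and which the gene table lists as a transcribed pseudogene, read 6.32 and 5.88 and lay at -0.42 relative to the threshold of array 1. Camp, the cathelicidin precursor of neutrophils and epithelia, read 5.23 and 4.73. Ang2 had a mean signal of 5.82 and Ang6 one of 3.65. Of the other peptidoglycan recognition proteins, Pglyrp2, an amidase of the liver, had 5.46, and Pglyrp3 and Pglyrp4, which are made in skin and other epithelia, had 4.28 and 4.01. None of the 10 was more than 2-fold apart between the arrays.

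**Figure D3:**
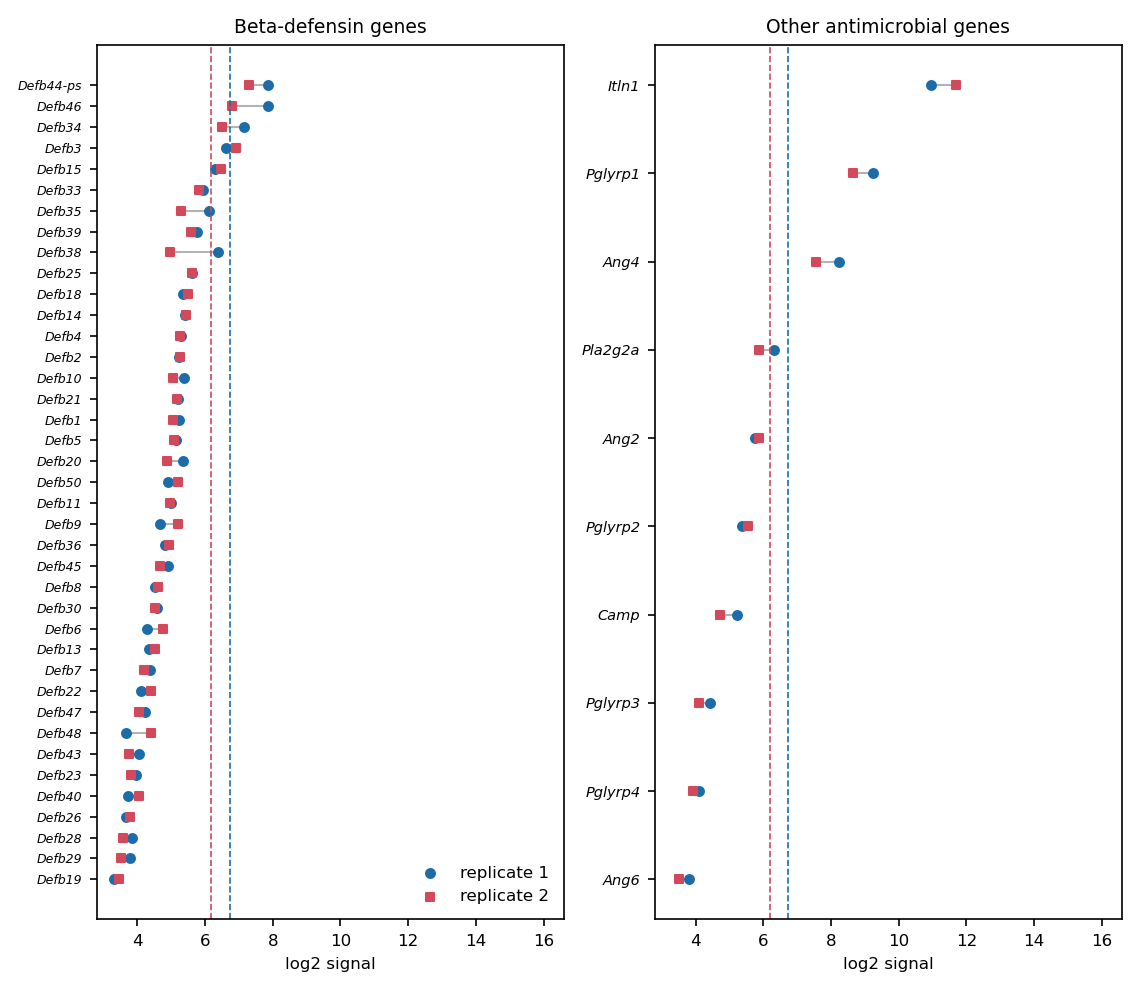
Log2 signal of the 39 beta-defensin genes (left) and the 10 other antimicrobial genes (right) on array 1 (circles) and array 2 (squares), with the threshold of each array as a dashed line in its colour. Only Defb44-ps, Defb46 and Defb34 among the beta-defensins, and Itln1, Pglyrp1 and Ang4 among the others, lie above the threshold of both arrays.

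Other genes of Paneth cells were also above the threshold in most cases, with differences between the arrays in both directions. Of 22 measured genes in that list, 16 passed (72.7%, beside 31.7% of all named genes), with a median signal of 8.27. The list is not particular to Paneth cells, and Spink4 and Spdef also stand in the goblet cell list. The lysozyme gene Lyz1, whose probes may share signal with its near-identical copy Lyz2, read 13.37 on array 1 and 13.77 on array 2. Xbp1, a regulator of the secretory apparatus, read 13.24 and 13.76, and the antibacterial lectin gene Reg3b 13.34 and 13.15. Matrilysin, the product of Mmp7 that processes the cryptdins, had 9.17 and 9.37. Ephb3, Wnt3, Egf, Gfi1 and Bhlha15 passed on neither array, and the transcription factor gene Bhlha15 was lowest at 3.70. The median centred difference of the list was -0.11, with 14 of 22 below 0. Guca2b, the uroguanylin gene, was the most different at -1.44, and the pentraxin genes Mptx1 and Mptx2, named after their values were seen, stood at -1.38 and -0.94. Lyz1, Reg3g and Mmp7 had centred differences of 0.45, 0.28 and 0.24 toward array 2, as did Xbp1 with 0.57.

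Markers of the cells that make these peptides differed in direction between the arrays. The 4 measured Paneth cell markers, Lyz1, Mmp7, Mptx2 and Reg3g, had a summed signal, on the log2 scale, of 13.86 on array 1 and 14.05 on array 2, with 3 of 4 higher on the latter after centring. Lyz1 alone made up 71.3% and 82.4% of that sum on the linear scale, and without it the sum turned, to 12.05 on array 1 and 11.54 on array 2. These 4 belong to the list of 22 Paneth cell genes, of which 14 had centred differences below 0. The summed signal of the 8 epithelial markers was 16.28 and 16.45, with 4 of 8 on either side, and Krt8 made up 54.8% and 61.7% of it. Without Krt8 that sum turned as well, to 15.14 and 15.07. The 5 goblet cell markers gave 15.51 and 15.47, with 3 of 5 higher on array 2 after centring, and without Zg16, the highest, 15.01 and 14.85. All these sums are of values before centring, where the median difference of all named genes was -0.048, so small gaps between them show no direction. The 8 neutrophil markers gave 9.32 and 8.60, with 6 of 8 higher on array 1, and 8.64 and 8.15 without S100a9. Of these 6 only S100a9 (-1.15) passed the threshold, and Csf3r, the other neutrophil marker that passed, stood at 0.11 toward array 2. No value of the table is 0, so no marker is at 0. The part of any of these cells in the alpha-defensin difference was not tested.

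Of the genes that process alpha-defensins or act in the Paneth cell niche, 10 of 17 passed (58.8%). Among all named genes 31.7% did, and among protein-coding genes outside the reference 38.9%. The niche list had a median signal of 7.70 and a median centred difference of -0.06. The interleukin 4 receptor gene Il4ra (13.75 ± 0.04), the adaptor gene Myd88 (9.77 ± 0.09) and the Wnt co-receptor gene Lrp6 (9.56 ± 0.034) were highest. Il22, a cytokine that acts on crypt epithelium, was lowest at 4.33, and it was also the most different toward array 1 (-0.90), while the potassium channel gene Kcnn4 was so toward array 2 (1.36). Of 18 epithelial genes 16 passed (88.9%), with Krt8, Krt19 and Cdh1 at 15.59, 13.50 and 12.57 and Phgr1 lowest at 4.21. Fabp1 (-1.09) and Krt20 (0.81) were the most different. The median of the 18 genes was 10.12 and their median centred difference -0.14. Of 13 goblet cell genes, among them the members Itln1 and Ang4, 10 passed (76.9%). Zg16 (13.84), Agr2 (13.83) and Tff3 (13.77) led that list, and Retnlb was lowest at 4.39. Without Itln1 and Ang4 the median centred difference of the goblet cell genes was 0.30, from -0.76 for Spink4 to 0.90 for Klf4.

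**Figure D4:**
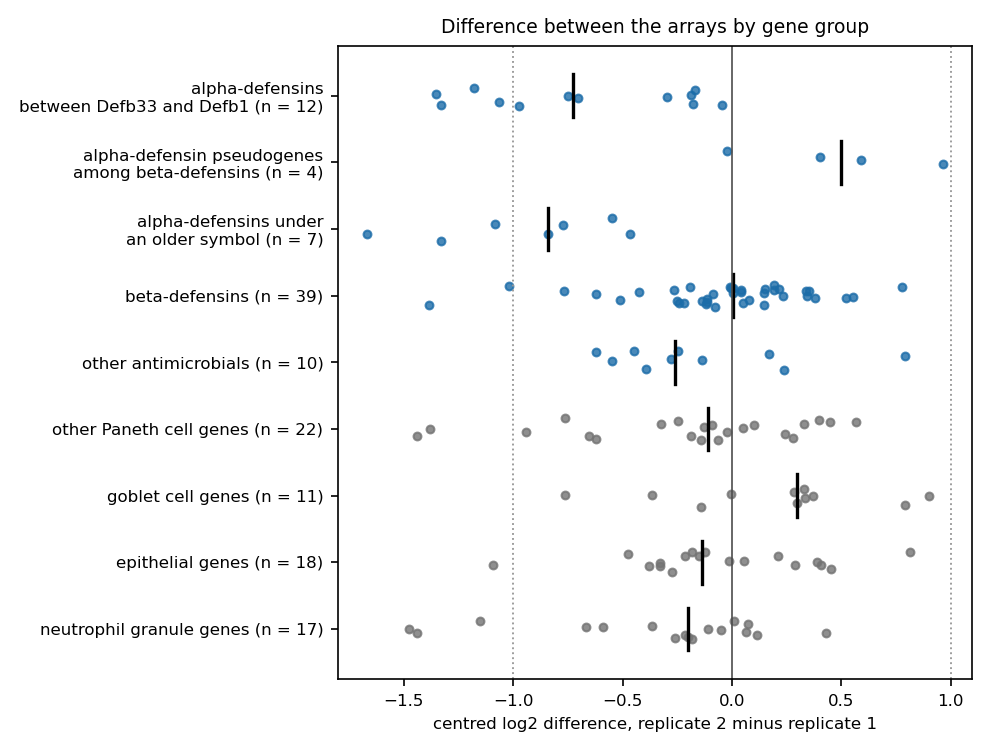
Centred log2 difference of array 2 minus array 1 for each gene (points, spread vertically at random) and the median of each group (bars), with dotted lines at 2-fold. The 12 alpha-defensins between Defb33 and Defb1 and the 7 under older symbols all lie to the left of 0, with medians of -0.73 and -0.84, while the beta-defensins centre on 0 and the goblet cell genes on 0.30.

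The lists for other known sources of defensins and antimicrobials had medians below the 5.43 of all named genes. Of 17 neutrophil granule genes, 3 passed (17.6%, beside 31.7% of all named genes): the oxidase gene Cybb (12.80 ± 0.03), which macrophages also express, S100a9 (7.30 ± 0.85) and the receptor gene Csf3r (6.98 ± 0.05). At the 99th percentile of the reference 1 passed. Cebpe was lowest at 3.59, and the granule gene Ngp was the most different at -1.48, against 0.43 for Retnlg. The median signal of the list was 4.76 and its median centred difference -0.20. Of 16 genes of epididymis and testis, where many beta-defensins are made, 0 passed, and their median was 4.20, the one median of these lists below the 4.47 of the reference genes. The ribonuclease Rnase9 was highest at 5.79, followed by Adam7 and Lcn12 at 4.58 and 4.56. Rnase10 was lowest at 3.58 and the most different toward array 1 (-0.64), and Spint4 was so toward array 2 (0.26). A further list held genes of the ribonuclease A family, to which the angiogenins belong, and the inhibitor gene Rnh1, which is not of that family. In it 3 of 13 passed (23.1%, beside 31.7% of all named genes), with a median of 4.88. They were the family genes Rnase1 (10.76 ± 0.52) and Rnase6 (9.94 ± 0.24), and Rnh1 (7.75 ± 0.15). Rnase10 was again the lowest, Rnase1 the most different toward array 1 (-0.68) and Ear10 toward array 2 (0.57).

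Receptors linked to defensins or angiogenin were split. Of 12 measured, 7 passed (58.3%, beside 31.7% of all named genes), with a median signal of 7.66 and a median centred difference of 0.05. The endocytic receptor gene Lrp1 (13.59 ± 0.35), the chemokine receptor gene Cxcr4 (11.70 ± 0.73) and the growth factor receptor gene Egfr (9.94 ± 0.0038) were highest, and the mast cell receptor gene Mrgprb2 was lowest at 3.28. Cxcr4 was the most different toward array 2 (1.09). Ccr6, the chemokine receptor through which beta-defensins attract lymphocytes and dendritic cells, read 4.46 on array 1 and 4.09 on array 2, below both thresholds, and it was the most different in the other direction (-0.32).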

How the data were processed

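Each of 2 arrays of 1 group gave 1 value per feature. The deposited values, from 2.10 to 19.86, are taken as log2 signal from their range, since the labels and the file do not state the unit. MAS5 is the only tool in the submitters' processing notes, with no version or role. The summarization, background, scaling and genome build: not given in the sources used here. Array medians were 5.02 and 4.90, and the number of arrays limits the precision. Of 61344 features, the 28573 with 1 symbol were used. Symbols were updated by Entrez identifier (789 changed), and for the 215 genes with several features the one of highest mean signal was taken, none of them a member. No replicate correlation or count model was fitted. Differences were centred on the median difference of all named genes (-0.048 before centring), and the replicate SD over all named genes was 0.31. Promoter windows were searched on both strands and aligned globally with Biopython 1.88 (match 1, mismatch -1, gap opening -2, extension -0.5). Python 3.11.15, numpy 2.4.6 and pandas 2.3.3 were used, and the statistics were tested on simulated data. The members and lists were chosen with earlier results of these data known. Named were all other antimicrobial genes, and of the defensins those above a threshold, the 3 highest and lowest, those nearest the threshold and the 5 most different in each direction. Of each other list, the 3 highest, the lowest and the most different in each direction were named. Further genes of the Paneth cell list were named outside this rule: Ephb3, Wnt3, Egf, Gfi1, Spink4, Spdef, Mmp7, Reg3g, Mptx1 and Mptx2. Of these, Mmp7, Reg3g and Mptx2 are also Paneth cell markers. Alternatives were other reference percentiles and genes, the median over features, quantile normalization, other centring and leaving out each array. Features with several symbols or none entered no group.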

Additional observations from a re-analysis of the deposited data

Results flagged for a closer look

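Features that carry several gene symbols including an alpha-defensin's entered none of the groups, yet 10 of 10 passed the threshold on each array. They drew attention as signal in data left out of the comparisons. Their mean signals ran from 12.56 to 15.82 with a median of 14.12, and their centred differences from -2.04 to -0.34. No gene is named for them.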

How the results depend on the processing

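The count of 9 alpha-defensins that passed moved by less than 1.5 times under the alternatives chosen at the start, namely the other percentiles, the other reference genes and leaving out each array. Taking the median over features could not move it, since no member has several. Alternatives added after the data were seen moved it to 16 with the 7 genes under older symbols, all of which passed. With those genes the median signal was 10.13 and the median centred difference -0.71, and with the members between Defb33 and Defb1 alone they were 9.56 and -0.73. Over the members above the threshold the median difference was -0.98, a choice that itself removes the genes of low signal. The count of 4 alpha-defensins more than 2-fold apart became 6 under quantile normalization and 5 when centred on genes above the threshold. The beta-defensin count of 3 fell to 0 at the 99th percentile of the reference and rose to 5 at the 90th, and without 1 array it was 3 to 5. Their median difference of 0.00 became -0.047 when centred on genes above the threshold and -0.62 over the 3 that passed. The neutrophil granule count fell from 3 to 1 at the 99th percentile. A stricter percentile lowers counts by construction. No paired analysis was possible because the design holds 1 group. With 1 group and 2 arrays, signal over the reference and the number of arrays limit what can be seen.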

Other observations

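Of 3 features that carried the symbols of several genes including a beta-defensin, 0 lay above the threshold, with mean signals from 3.99 to 4.14. The 1 feature that carried several symbols including that of another antimicrobial gene had a mean signal of 4.46, also below it.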
